A study of Homo sapiens with 24 samples.

Results

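SK-N-BE(2) is an established human neuroblastoma line, described in the paper as p53 mutant, and 8 of the 24 arrays of the series measured it. The 8 arrays were chosen by their labels: cell line SK-N-BE(2), with transgene FOXP1 (4 arrays) or transgene GFP (4 arrays), at 0, 12, 24 and 72 h. The paper counts these hours from the induction of the transgene, for which doxycycline was used. The series placed FOXP1 or GFP in 3 neuroblastoma lines, the other lines being IMR-32 and CHP-212 with 8 arrays each, and asked how cells that carry FOXP1 differ from those that carry GFP. RNA was labelled with 1 dye and hybridized to 44K oligonucleotide arrays. In both SK-N-BE(2) cultures the transgene sits in a retroviral vector that doxycycline switches on, and both were grown as polyclonal populations. The paper states that the promoter of this vector system leaks, so the 0 h arrays need not be free of transgene expression. Each culture is 1 population sampled at 4 times, so the 4 arrays of a group are not separate cultures, and a p-value here measures a difference against the spread between those arrays.

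FOXP1 is a forkhead transcription factor that binds DNA and mostly represses genes. Neuroblastoma arises from sympathoadrenal neural crest, and its cells can make catecholamines, store neuropeptides and keep genes of immature neurons. Somatostatin, reelin and S100A10, the genes that mark the difference between these cultures, are a secreted neuropeptide, a secreted matrix glycoprotein that guides migrating neurons, and the partner of annexin A2 at the inner face of the plasma membrane.

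The transgene label was checked against the FOXP1 probe. A level is here the log2 processed signal minus the log2 of the array's 75th percentile. The GFP arrays had FOXP1 levels of 3.00, 3.30, 2.87 and 2.81 at 0, 12, 24 and 72 h, and the FOXP1-labelled arrays had 2.97, 2.84, 2.63 and 2.73. The 2 groups overlapped, with a log2 difference of -0.20 (SE 0.16, adjusted p = 0.911, limma), and at each time the FOXP1-labelled array read lower. The same probe was higher in the FOXP1 cultures of IMR-32 (log2 difference 1.40, adjusted p = 0.00011) and of CHP-212 (1.98, adjusted p = 0.000443). The difference in SK-N-BE(2) lay below theirs by tested contrasts of -1.60 (adjusted p = 9.56e-06) and -2.18 (adjusted p = 1.07e-06). The probe thus does not show the labelled transgene in SK-N-BE(2), the files do not say where it lies in the inserted sequence, and the cultures are called FOXP1-labelled and GFP throughout.

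The cell type label was checked by the adrenergic neuroblastoma list. All 22 of its matched probes were well above background on all 8 arrays, among them STMN2, a stathmin of growing neurites. The summed signal of the list, in units of each array's 75th percentile, ran from 371 to 422 on the GFP arrays and from 327 to 369 on the FOXP1-labelled arrays. In the mesenchymal list, a fibroblast-like state of neuroblastoma cells, 14 of 20 matched probes were well above background on all 8 arrays and 3 on none. Its sums overlapped, from 60.7 to 73.0 on the GFP arrays and from 59.8 to 80.2 on the FOXP1-labelled arrays. Of the markers of other cell types, those well above background on all 8 arrays were 2 of 6 endothelial, 1 of 6 leukocyte, 1 of 5 epithelial and 1 of 3 Schwann cell and melanocyte probes and the fibroblast probe, for DCN. Signals of different probes are not compared. The endothelial gene EGFL7 had a log2 difference of 1.31 (adjusted p = 0.461, and 0.00878 with time as a block). The sums of 2 of these lists, leukocyte and epithelial, did not overlap between the cultures, nor did those of the adrenergic list. Such a sum rests most on its brightest probe, here LCP1, KRT19 and STMN2. By limma neither LCP1 (adjusted p = 0.418) nor KRT19 (adjusted p = 0.237) was called. Groups without overlap were found for 5.93% of all tested probes. In the leukocyte list, LCP1 was well above background on all 8 arrays and CD48, CD53 and PTPRC on none. The list summed to 4.08, 5.63, 4.15 and 5.95 on the GFP arrays and to 2.76, 3.89, 3.29 and 3.43 on the FOXP1-labelled arrays at 0, 12, 24 and 72 h. In the epithelial list, KRT19 was well above background on all 8 arrays and KRT5 on none. The list summed to 1.502, 1.66, 2.03 and 1.52 on the GFP arrays and to 2.67, 2.79, 3.95 and 2.12 on the FOXP1-labelled arrays. The ranges of the endothelial list, of the Schwann cell and melanocyte list and of DCN overlapped, while at each time the arrays differed in the same direction. In the endothelial list, EGFL7 was well above background on all 8 arrays and CD34 and TEK on none. The list had 0.20, 0.204, 0.285 and 0.459 on the GFP arrays against 0.359, 0.375, 1.06 and 1.10. In the Schwann cell and melanocyte list, PMEL (adjusted p = 0.876, and 0.0481 with time as a block) was well above background on all 8 arrays. The list had 0.164, 0.211, 0.273 and 0.58 against 0.149, 0.127, 0.21 and 0.328. DCN (adjusted p = 0.564, and 0.0562 with the block) had 0.151, 0.185, 0.258 and 0.269 against 0.0703, 0.0802, 0.15 and 0.193. The part of these lists in the results below was not tested.

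The 2 cultures were compared over all tested probes. How many are called depends on the setting, and the 2-fold limit fixes the least size of a called difference. Of 34044 probes tested, 242 were called (0.711%) at an adjusted p under 0.05 and at least 2-fold, 145 higher in the FOXP1-labelled culture (0.426%) and 97 lower (0.285%). The median log2 difference over all tested probes was -0.01 and the median size 0.18. By limma, 2610 of the tested probes had an unadjusted p under 0.05. All 242 called probes had groups that do not overlap, as had 2018 of all tested probes (5.93%). Of the called probes, 194 had a log2 difference of at least 2-fold at each of the 4 times, 119 of them higher and 75 lower, and 170 when signals not well above background are replaced by bounds. The 0 h arrays had a part in choosing these probes. Of the 40 probes called from 12, 24 and 72 h alone, 39 differed at least 2-fold in the same direction at 0 h, against 3.78% of all tested probes in either direction. With the time point as a replicate block, 477 probes were called, among them 239 of the 242. With the slide as a block, 311 were called, among them 238.

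The count depends on single arrays. It was 132 without the GFP 0 h array, 138 without GFP 12 h, 145 without GFP 24 h, 155 without FOXP1-labelled 0 h, 127 without FOXP1-labelled 12 h and 153 without FOXP1-labelled 72 h. From the 12, 24 and 72 h arrays alone it was 40, and 99 there with the time point as a replicate block.

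**Figure D1:**
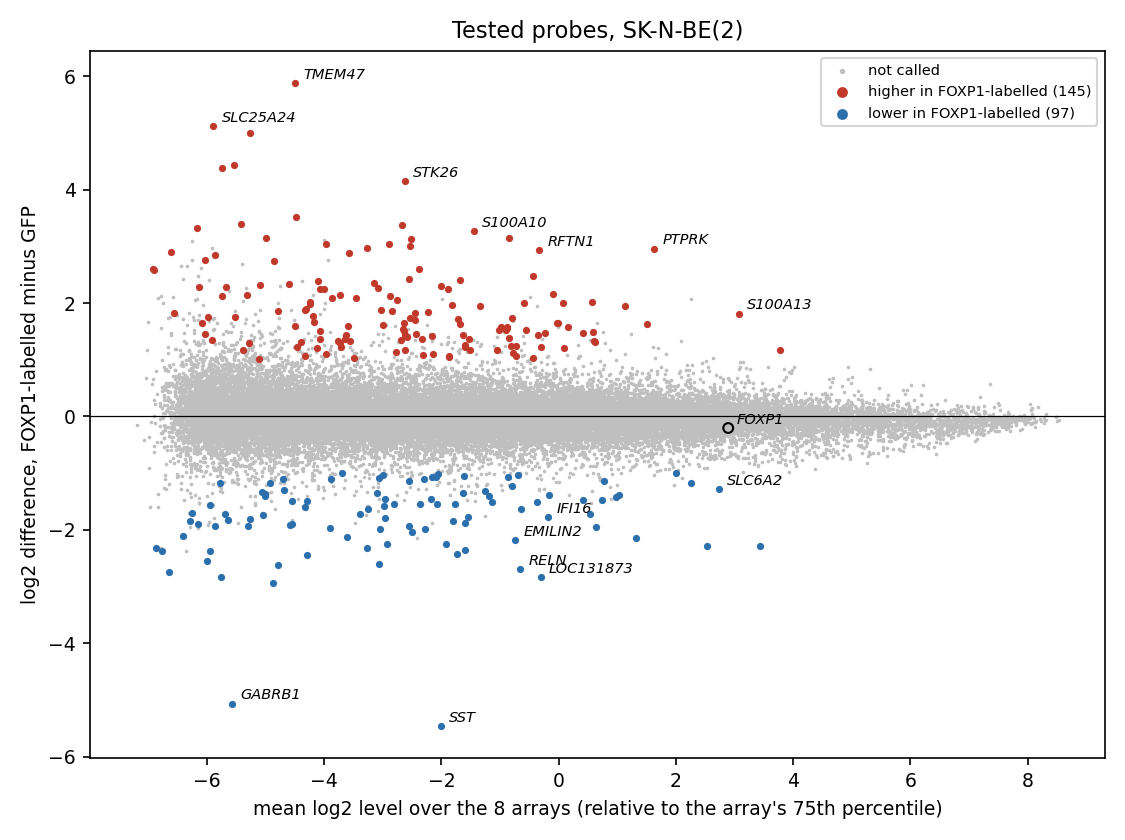
Each point is a tested probe of SK-N-BE(2): the horizontal axis is its mean log2 level over the 8 arrays, relative to the array's 75th percentile, and the vertical axis its log2 difference, FOXP1-labelled minus GFP. Red points (145) and blue points (97) are called higher and lower; SST at -5.46 and GABRB1 at -5.07 lie below the rest, TMEM47 at 5.89 is the highest named gene, and FOXP1 (ringed) lies at -0.20.

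Gene names were available for 113 of the called probes, 72 higher and 41 lower, because the files pair probes with symbols only through the part of the study's table of changed genes that was at hand. That table was drawn up from these arrays, so its genes are not independent evidence. Among the 2421 tested probes with a symbol, 4.67% were called and the median log2 difference was 0.06. Each list below is read beside these values, and the lists' genes that the table does not name could not be looked up.

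SST had the lowest measured log2 difference of the named genes. Its levels were 0.45, 1.35, 0.73 and 0.35 on the GFP arrays and -4.74, -4.49, -4.85 and -4.86 on the FOXP1-labelled arrays at 0, 12, 24 and 72 h. Every GFP array lay far above every FOXP1-labelled one, and the 4 FOXP1-labelled arrays lay close together. The log2 difference was -5.46 (SE 0.23, adjusted p = 5.54e-05), a 43.9-fold lower level. Whether fewer cells made SST or each cell made less cannot be told apart in bulk RNA, here and for the genes below. The difference was -5.51 on the slide with 0 and 12 h and -5.40 on the slide with 24 and 72 h.

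RELN had levels of 0.71, 1.06, 0.29 and 0.69 on the GFP arrays and -1.51, -1.92, -2.84 and -1.76 on the FOXP1-labelled arrays. The groups were apart at every time, and in both the 24 h array was the lowest. The log2 difference was -2.70 (SE 0.30, adjusted p = 0.00523), a 6.48-fold lower level, with -2.60 within the 0 and 12 h slide and -2.79 within the 24 and 72 h slide. From 12, 24 and 72 h alone its adjusted p was 0.0661.

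S100A10 went the other way. Its levels were -3.13, -2.68, -3.54 and -2.98 on the GFP arrays and 0.55, 0.15, -0.42 and 0.49 on the FOXP1-labelled arrays. Each FOXP1-labelled array was above all GFP arrays, and here too the 24 h array was the lowest in both groups. The log2 difference was 3.28 (SE 0.27, adjusted p = 0.00136), a 9.68-fold higher level, with 3.25 and 3.30 within the 2 slides.

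**Figure D2:**
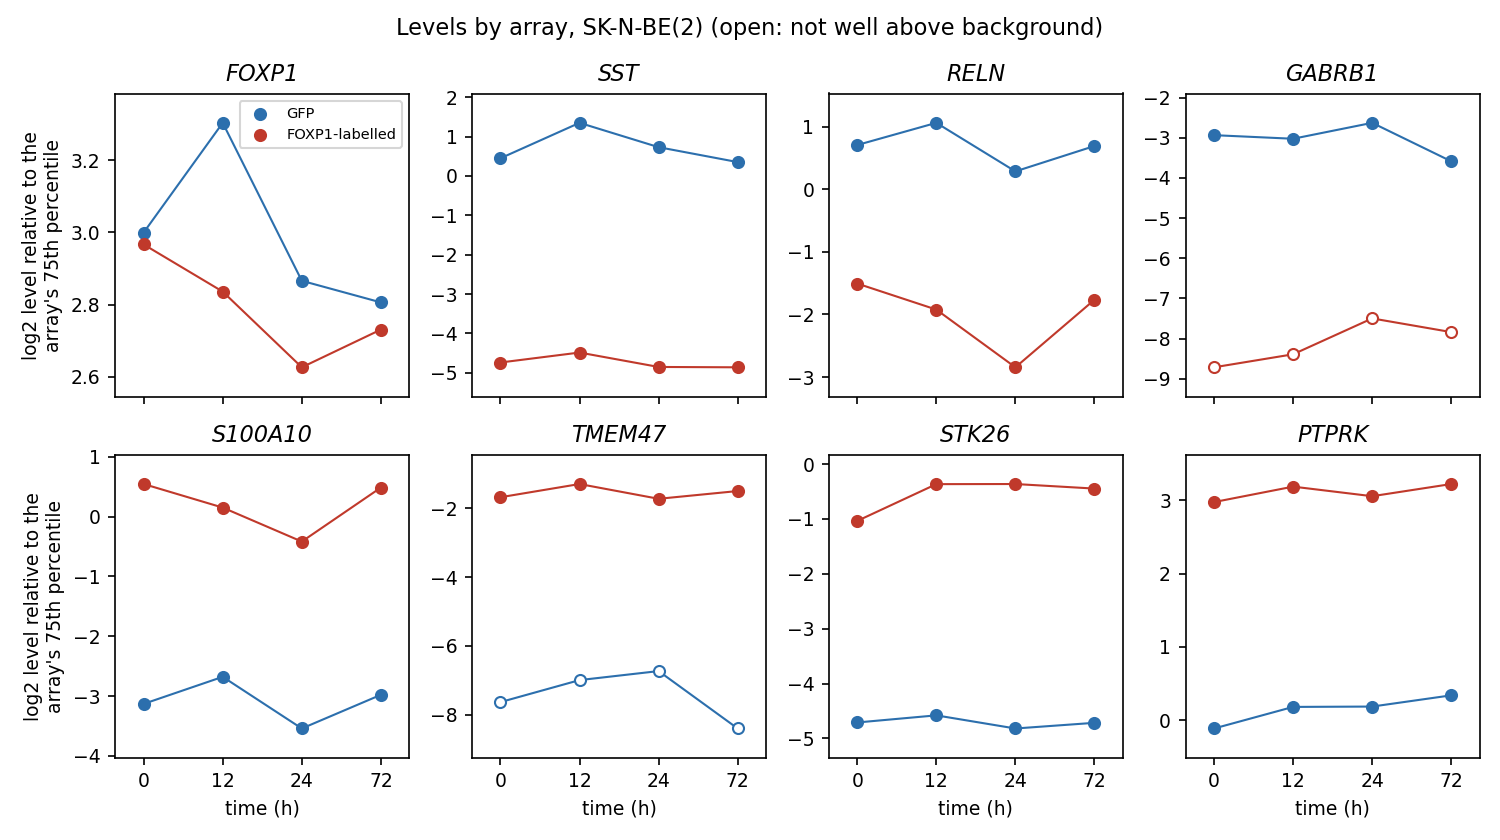
Log2 level relative to the array's 75th percentile (vertical axis, its own range in each panel) of 8 genes against time in hours, GFP arrays in blue and FOXP1-labelled arrays in red; open points were not well above background. FOXP1 levels lie between 2.63 and 3.30 over the 2 cultures and are lower in the FOXP1-labelled culture at each time. The other 7 genes also keep the same order of cultures at all 4 times.

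The sequences before the starts of these 3 genes and of TMEM47, the named gene with the highest measured log2 difference, are shown because these genes carry the differences just described. They are the 250 bases before the start, from RefSeq on GRCh38.p14, all on the minus strand: chr3:187670395-187670644 for SST, chr7:103989659-103989908 for RELN, chr1:151993860-151994109 for S100A10 and chrX:34657286-34657535 for TMEM47. Capitals mark matches on either strand to the cAMP response element TGACGTCA, the forkhead core GTAAACA, the TATA box TATAAA or the GC box GGGCGG.
SST: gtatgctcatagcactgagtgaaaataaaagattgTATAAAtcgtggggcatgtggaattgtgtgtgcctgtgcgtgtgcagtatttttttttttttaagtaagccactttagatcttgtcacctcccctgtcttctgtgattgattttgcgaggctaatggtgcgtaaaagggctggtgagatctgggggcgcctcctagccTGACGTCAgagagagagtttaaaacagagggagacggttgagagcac
RELN: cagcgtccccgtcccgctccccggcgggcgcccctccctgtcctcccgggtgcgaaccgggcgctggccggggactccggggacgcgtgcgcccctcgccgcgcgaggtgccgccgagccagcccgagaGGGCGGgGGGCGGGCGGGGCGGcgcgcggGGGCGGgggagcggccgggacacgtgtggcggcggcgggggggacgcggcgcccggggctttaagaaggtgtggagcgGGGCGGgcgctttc
S100A10: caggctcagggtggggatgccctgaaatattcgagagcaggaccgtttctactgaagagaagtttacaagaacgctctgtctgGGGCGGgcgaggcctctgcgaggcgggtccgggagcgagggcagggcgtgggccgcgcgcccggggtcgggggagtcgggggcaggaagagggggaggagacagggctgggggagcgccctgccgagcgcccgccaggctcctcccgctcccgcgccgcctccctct
TMEM47: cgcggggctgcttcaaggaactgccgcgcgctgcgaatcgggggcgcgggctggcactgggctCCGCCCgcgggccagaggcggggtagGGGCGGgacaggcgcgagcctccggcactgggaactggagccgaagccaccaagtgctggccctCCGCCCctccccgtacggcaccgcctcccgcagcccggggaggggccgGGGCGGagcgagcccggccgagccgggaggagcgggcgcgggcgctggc
SST had the letters of the cAMP response element 47 bases before its start, and those of the TATA box 215 bases before it. RELN held 6 GC boxes, 3 of which overlap in a row, S100A10 held 1 and TMEM47 held 4. The forkhead letters were in none of these 4 windows. Of 35116 promoter windows of this length, 1.65% held the cAMP response element, 2.98% the forkhead core and 42.6% the GC box, and 3763 windows held the TATA box. The windows of SST, at 45.6% G and C, and of RELN, at 83.2%, lie on either side of the 58% that is the median of all windows.

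Among the 14 higher genes named for the size of their measured log2 difference, 5 were at background on all GFP arrays, so their rank among the 14 is not known. TMEM47, a membrane protein of cell junctions, had levels of -1.68, -1.30, -1.73 and -1.50 on the FOXP1-labelled arrays and of -7.63, -6.99, -6.73 and -8.40 on the GFP arrays, none of which was well above background. Where an array of the lower group was not well above background, the fold is a lower bound, taken against the larger of that array's own signal and the lowest signal well above background on it. TMEM47 was at least 27.7-fold higher (log2 difference 5.89, adjusted p = 0.000196).

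SLC25A24, the mitochondrial carrier that exchanges ATP-Mg for phosphate, had levels of -3.52, -3.25, -3.14 and -3.38 on the FOXP1-labelled arrays and -8.72, -8.43, -8.41 and -8.25 on the GFP arrays. It was at least 8.12-fold higher (adjusted p = 7.98e-06). CSGALNACT1, which starts chondroitin sulfate chains, was at least 12.0-fold higher (adjusted p = 0.00107). COL2A1, the collagen of cartilage, was at least 8.15-fold higher (4.44, adjusted p = 0.00586), and SEL1L3 at least 6.91-fold higher (4.38, adjusted p = 0.0027). These 5 genes share that pattern: all 4 FOXP1-labelled arrays well above background and no GFP array. The first part was required of every higher gene named for its size. With no GFP array above background, their probes were tested on account of the FOXP1-labelled arrays alone.

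STK26, a kinase of the germinal centre group, was measured in both cultures, with GFP levels of -4.71, -4.58, -4.82 and -4.72 and FOXP1-labelled levels of -1.04, -0.36, -0.36 and -0.45. Its GFP arrays hardly differed among themselves, and among the FOXP1-labelled arrays the 0 h array was the low one. It was 17.8-fold higher (log2 difference 4.15, SE 0.19, adjusted p = 5.54e-05).

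PTPRK, a receptor tyrosine phosphatase at cell contacts, was measured well above background in both cultures, with -0.11, 0.18, 0.18 and 0.34 on the GFP arrays and 2.98, 3.19, 3.06 and 3.22 on the FOXP1-labelled arrays. It was 7.80-fold higher (log2 difference 2.96, SE 0.15, adjusted p = 0.000139). RFTN1, a protein of lipid rafts, was 7.66-fold higher (adjusted p = 0.000196). MOXD1, a monooxygenase related to dopamine beta-hydroxylase, was 8.21-fold higher (adjusted p = 0.00219). EXPH5, a Rab effector of vesicle traffic, was 7.89-fold higher (adjusted p = 0.0027) and MEST, an imprinted gene expressed from the paternal copy, 7.37-fold higher (adjusted p = 0.00347).

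INHBA and C3orf70 were less even over time. INHBA, the beta A subunit of activin and inhibin, differed by 2.95, 2.83, 3.19 and 5.12 on the log2 scale at 0, 12, 24 and 72 h, as its GFP level was -8.19 at 72 h and not well above background there (at least 8.004-fold higher over all 4 times, adjusted p = 0.0335). C3orf70 differed by 4.10, 4.09, 3.66 and 1.45, because its GFP level was -5.79 at 72 h and -8.32 or lower before (at least 3.38-fold higher, adjusted p = 0.0469, with 1 of 4 GFP arrays well above background). INHBA kept its call without GFP 72 h, and its adjusted p was 0.0537 to 0.113 without each of the other 7 arrays. C3orf70 behaved alike: it was called without GFP 72 h and had adjusted p-values of 0.0971 to 0.153 without each of the others.

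Of the 14 genes that were lower in the FOXP1-labelled culture, 4 were at background on all its arrays, and their order beside SST and the others is not known. GABRB1, a beta subunit of the GABA-A receptor, had levels of -2.94, -3.03, -2.63 and -3.59 on the GFP arrays and -8.72, -8.39, -7.50 and -7.84 on the FOXP1-labelled arrays, none of which was well above background. It was at least 10.9-fold lower (measured log2 difference -5.07, SE 0.31, adjusted p = 0.000237).

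EMILIN2, a glycoprotein of the matrix around elastic fibres, varied little within each culture (SD 0.05 and 0.16), with GFP levels of 0.40, 0.40, 0.29 and 0.32 and FOXP1-labelled levels of -1.86, -2.04, -1.69 and -1.72. It was 4.53-fold lower (log2 difference -2.18, SE 0.14, adjusted p = 0.000308). The table's LOC131873 was 7.11-fold lower (log2 difference -2.83, adjusted p = 0.0072); like RELN it had its lowest level of both groups at 24 h, 0.63 and -2.53. NCKAP5, which binds the adaptor NCK, was at least 3.26-fold lower (adjusted p = 0.0157) with 2 of 4 FOXP1-labelled arrays well above background. LOC157627 was 5.45-fold lower (adjusted p = 0.049), and TAFA5, a secreted chemokine-like protein of the brain, 5.09-fold lower (adjusted p = 0.0267).

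Of the other genes on that side, RAB37, a small GTPase of secretory granules, was 4.37-fold lower (adjusted p = 0.0347). SOSTDC1, a secreted inhibitor of BMP and Wnt signals, was 3.96-fold lower (adjusted p = 0.045), and SPATS1 at least 3.27-fold lower (adjusted p = 0.0072). TM4SF4, ST6GAL2 and GRXCR1 were at background on all 4 FOXP1-labelled arrays. They were lower by at least 1.89-fold for the membrane protein TM4SF4 (adjusted p = 0.0467), at least 1.74-fold for the sialyltransferase ST6GAL2 (adjusted p = 0.0226) and at least 2.21-fold for GRXCR1, known from the hair bundles of the inner ear (adjusted p = 0.00219).

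All 28 of these genes, 14 higher and 14 lower, had a measured log2 difference of at least 2-fold at each of the 4 times and within each of the 2 slides. By the bounds this holds at each time for 24 of them and is not shown for GRXCR1, ST6GAL2, TM4SF4 and NCKAP5, and for the slides it holds for 25 of the 28. The genes were chosen by these same arrays. All 28 were called with time or slide as a block. Without each of the 8 arrays in turn, 19 of the 28 stayed called. Besides INHBA and C3orf70, the calls of 7 lower genes were lost. For SOSTDC1 (adjusted p 0.0541 to 0.146) and LOC157627 (0.0747 to 0.177) this was so without any 1 of the 8 arrays. For RAB37 it was so without each array other than FOXP1-labelled 72 h (0.0563 to 0.128), and for TM4SF4 without each other than FOXP1-labelled 0 h (0.0506 to 0.146). TAFA5 lost its call without each GFP array and without FOXP1-labelled 12 or 72 h (0.0613 to 0.109). ST6GAL2 lost it without GFP 0, 12 or 72 h or FOXP1-labelled 0 h (0.0609 to 0.0947), and NCKAP5 without GFP 0, 24 or 72 h (0.0526 to 0.068). From 12, 24 and 72 h alone, 14 of the 28 were called. Those not called there were COL2A1, SEL1L3, INHBA, C3orf70, RELN, LOC131873, NCKAP5, LOC157627, TM4SF4, TAFA5, ST6GAL2, RAB37, SOSTDC1 and SPATS1, with adjusted p-values of 0.0522 to 0.431.

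**Figure D3:**
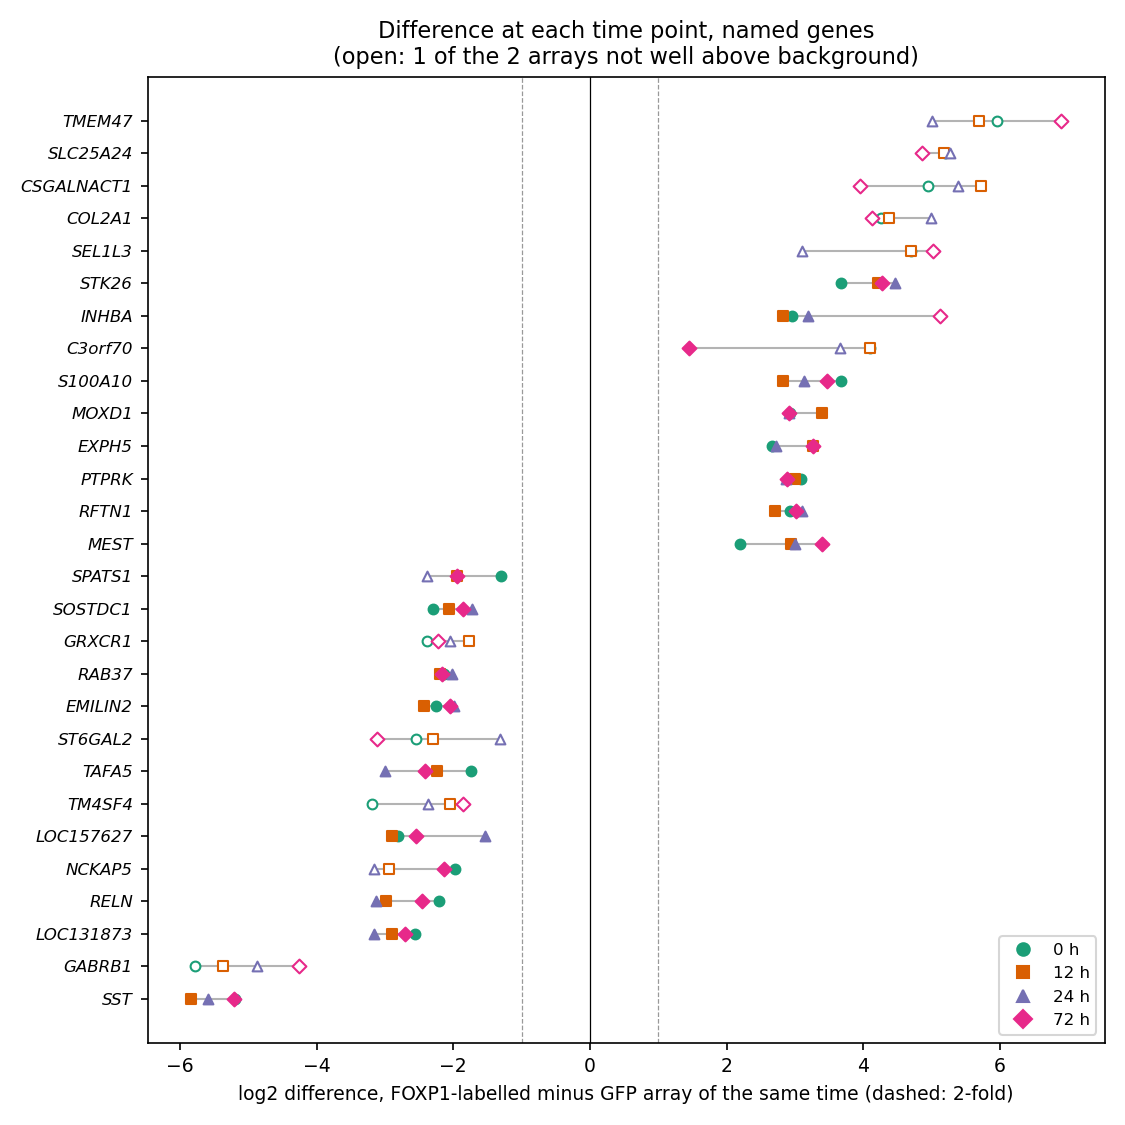
Log2 difference between the FOXP1-labelled and the GFP array of the same time (horizontal axis) for 14 higher and 14 lower named genes (rows), with a mark for each of 0, 12, 24 and 72 h. Open marks have an array not well above background, and their true size is not known; TMEM47 runs from 5.003 to 6.90 and C3orf70 from 1.45 to 4.10.

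In the adrenergic neuroblastoma list, 2 of 22 tested probes were higher, 2 were lower and 18 were not called (median log2 difference 0.20); with time as a block 3 were higher and 2 lower. The noradrenaline transporter SLC6A2 was 2.43-fold lower (adjusted p = 0.0268), with levels of 3.58, 3.36, 3.27 and 3.29 in the GFP culture and 2.61, 1.97, 1.77 and 2.02 in the FOXP1-labelled culture. MAOA, which breaks monoamines down, was 2.19-fold lower (adjusted p = 0.0157). PNMT, which makes adrenaline from noradrenaline, was 2.05-fold higher (adjusted p = 0.0346), as was MOXD1 by the value above. Among the 18 not called were the genes of noradrenaline synthesis and storage TH (log2 difference -0.07), DBH (0.54), SLC18A2 (0.25) and SLC18A1 (0.56). Leaving out 1 array, the call of PNMT held without FOXP1-labelled 72 h and otherwise had an adjusted p of 0.0628 to 0.14; that of SLC6A2 held without FOXP1-labelled 0 h and otherwise had 0.055 to 0.116. MAOA lost its call without GFP 12 or 24 h or FOXP1-labelled 0, 12 or 72 h (0.0528 to 0.0687).

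The mesenchymal list, genes of the fibroblast-like state of neuroblastoma cells, had 1 called member of 16 tested, S100A10 (median log2 difference 0.03), and 4 higher with time as a block. Among S100 proteins, annexins and galectins, 2 of 10 tested probes were higher and 0 lower. Beside S100A10 this was S100A13, a calcium-binding protein that takes part in the release of growth factors without a signal peptide. Its levels were 1.90, 1.95, 2.29 and 2.53 in the GFP culture and 3.73, 3.84, 4.45 and 3.89 in the FOXP1-labelled culture, 3.52-fold higher (adjusted p = 0.0072).

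Of 19 tested neuropeptide, hormone and processing genes, SST was the called one, with 1 higher and 2 lower when the time point was a block. None of the 16 tested peptide receptors was called by limma, with 7 at an unadjusted p under 0.05, and the study's kind of test called 3 without and 0 with adjustment. The receptors with the lowest p were AGTR1, the angiotensin receptor, at least 1.73-fold higher (adjusted p = 0.0516, and 0.012 with time as a block) and CMKLR2, a chemerin receptor, at least 2.22-fold higher (adjusted p = 0.0688, and 0.0258 with the block). Both were at background on all GFP arrays. In the list of reelin, Notch and guidance proteins, RELN was the called member of 26 tested, and 2 were higher and 3 lower with the block.

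The extracellular matrix list is the largest list. Its called share was 18.8%, beside 4.67% of all tested probes with a symbol. Other lists had similar shares: 20.0% for S100 proteins, annexins and galectins, and 18.2% for the adrenergic list. Growth factors and receptor tyrosine kinases had 17.9%, interferon-induced and antigen presentation genes 17.6%, and peptide receptors 0%. The lists were chosen with earlier results known, so this share does not set matrix genes apart. Of the 48 tested matrix probes, 6 were higher and 3 lower, and their median log2 difference was 0.55. With the time point as a block these were 10 and 5. The higher ones were COL2A1 and CSGALNACT1, given above, the surface proteoglycan GPC3 (4.74-fold, adjusted p = 0.00397), the peroxidase PXDN that crosslinks basement membrane collagen (3.66-fold, adjusted p = 0.0061), the basement membrane collagen COL4A2 (3.11-fold, adjusted p = 0.00561) and the secreted protein CTHRC1 (2.34-fold, adjusted p = 0.0264). COL4A2 had levels of 0.44, 0.85, 0.57 and 0.91 in the GFP culture and 2.34, 2.16, 2.14 and 2.67 in the FOXP1-labelled culture. The lower ones were EMILIN2, GPC5, a proteoglycan of the same family as GPC3 (at least 2.43-fold, adjusted p = 0.038), and the sulfotransferase CHST2 (2.50-fold, adjusted p = 0.0267). COL4A1, the usual partner chain of COL4A2, was not called (log2 difference 0.99, adjusted p = 0.172), nor was the basement membrane gene NID2 (-2.15, adjusted p = 0.191). The call of CTHRC1 held without GFP 72 h (otherwise adjusted p 0.0556 to 0.0948), that of GPC5 without FOXP1-labelled 72 h (0.0723 to 0.138) and that of CHST2 without FOXP1-labelled 24 h (0.0633 to 0.0893).

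Of 33 tested adhesion genes, 0 were higher and 2 lower, and 2 and 3 with time as a block. TPBG, an oncofetal surface glycoprotein, was 2.47-fold lower (adjusted p = 0.0176) and LSAMP, a neuronal immunoglobulin-type adhesion protein, 2.07-fold lower (adjusted p = 0.0348). TPBG lost its call without GFP 12 or 24 h or FOXP1-labelled 0, 12 or 72 h (0.0511 to 0.0738), and LSAMP without each array other than FOXP1-labelled 24 h (0.0813 to 0.135).

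Signalling genes were called on both sides. In the Wnt list, 1 of 21 tested was higher and 2 were lower, and 4 and 2 with the block. LRP4, a receptor that binds agrin and Wnt inhibitors, was 3.25-fold higher (adjusted p = 0.0264). PRICKLE1, a protein of planar cell polarity, was 2.60-fold lower (adjusted p = 0.0027), with levels from 1.60 to 1.85 in the GFP culture and from 0.23 to 0.43 in the FOXP1-labelled culture, and SOSTDC1 was lower as given above. In the TGF-beta and BMP list, 2 of 19 were higher, INHBA and the ligand TGFB3 (2.73-fold, adjusted p = 0.00315), and 0 lower; with the block these were 3 and 1. LRP4 was called without GFP 72 h and otherwise had an adjusted p of 0.0517 to 0.101.

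Of 28 tested growth factors and receptor tyrosine kinases, 4 were higher and 1 lower, and 7 and 2 with the block. FGFR2, a fibroblast growth factor receptor, was 4.81-fold higher (adjusted p = 0.00285) and IGFBP7, which binds insulin-like growth factors, 4.02-fold higher (adjusted p = 0.0027). The ligands HGF and BDNF were 2.10-fold (adjusted p = 0.049) and 2.09-fold (adjusted p = 0.0278) higher, and GFRA2, the receptor of neurturin, was 2.90-fold lower (adjusted p = 0.0267). HGF lost its call without any 1 of the 8 arrays (0.0636 to 0.18), BDNF without each other than FOXP1-labelled 24 h (0.0664 to 0.116) and GFRA2 without GFP 0, 12 or 24 h or FOXP1-labelled 0 or 12 h (0.0684 to 0.112).

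Of 36 tested ion channels and transmitter receptors, 1 was higher and 3 were lower, and 2 and 3 with the block, while the median of the list was 0.09. Beside GABRB1, the cold-sensing channel TRPM8 was at least 2.85-fold lower (adjusted p = 0.012) and HTR3B, a subunit of the serotonin-gated channel, at least 2.15-fold lower (adjusted p = 0.045). KCNAB1, an auxiliary subunit of potassium channels, was at least 5.86-fold higher (adjusted p = 0.00897), with 1 of 4 GFP arrays well above background. HTR3B kept its call without GFP 12 h and otherwise had an adjusted p of 0.0614 to 0.164. Among solute carriers and other transporters, 3 of 30 were higher and 1 lower, and 4 and 2 with the block. SLC32A1, which loads GABA and glycine into synaptic vesicles, was 5.12-fold higher (adjusted p = 0.0027), and the phospholipid flippase ATP8A2 at least 1.65-fold higher (adjusted p = 0.0117, and 0.0517 without FOXP1-labelled 12 h).

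Of 42 tested developmental transcription factors, 3 were higher and 1 lower (median 0.15), and 7 and 1 with the block. The higher ones were SALL4, a zinc finger factor of stem and germ cells (4.38-fold, adjusted p = 0.0458), the LIM-only protein LMO3 (4.27-fold, adjusted p = 0.00365) and the LIM homeobox factor LHX9 (2.52-fold, adjusted p = 0.0268). The lower one was MEIS3, a homeobox partner of HOX proteins (2.91-fold, adjusted p = 0.00909). SALL4 was called without GFP 72 h (otherwise adjusted p 0.0791 to 0.164) and LHX9 without GFP 24 h (otherwise 0.0614 to 0.0946).

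Immune genes were split as well. In the list of interferon-induced and antigen presentation genes, 1 of 17 was higher and 2 were lower, and 2 and 2 with the block. The exonuclease ISG20 was 2.97-fold higher (adjusted p = 0.0388). IFI16, a sensor of DNA, was 3.44-fold lower (adjusted p = 0.00799), with levels of 0.71, 0.87, 0.65 and 0.60 in the GFP culture and -1.34, -1.11, -1.39 and -0.46 in the FOXP1-labelled culture. HLA-DOB, a chain of the class II modulator HLA-DO, was 3.61-fold lower (adjusted p = 0.0128, and 0.0578 without FOXP1-labelled 12 h). ISG20 lost its call without GFP 0, 12 or 24 h or FOXP1-labelled 12, 24 or 72 h (0.0706 to 0.143). Of 15 tested genes of death receptors and caspases, the receptor TNFRSF1B was the called one, at least 1.66-fold higher (adjusted p = 0.0267), and it was called without GFP 72 h but had 0.0519 to 0.0994 without each other array.

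**Figure D4:**
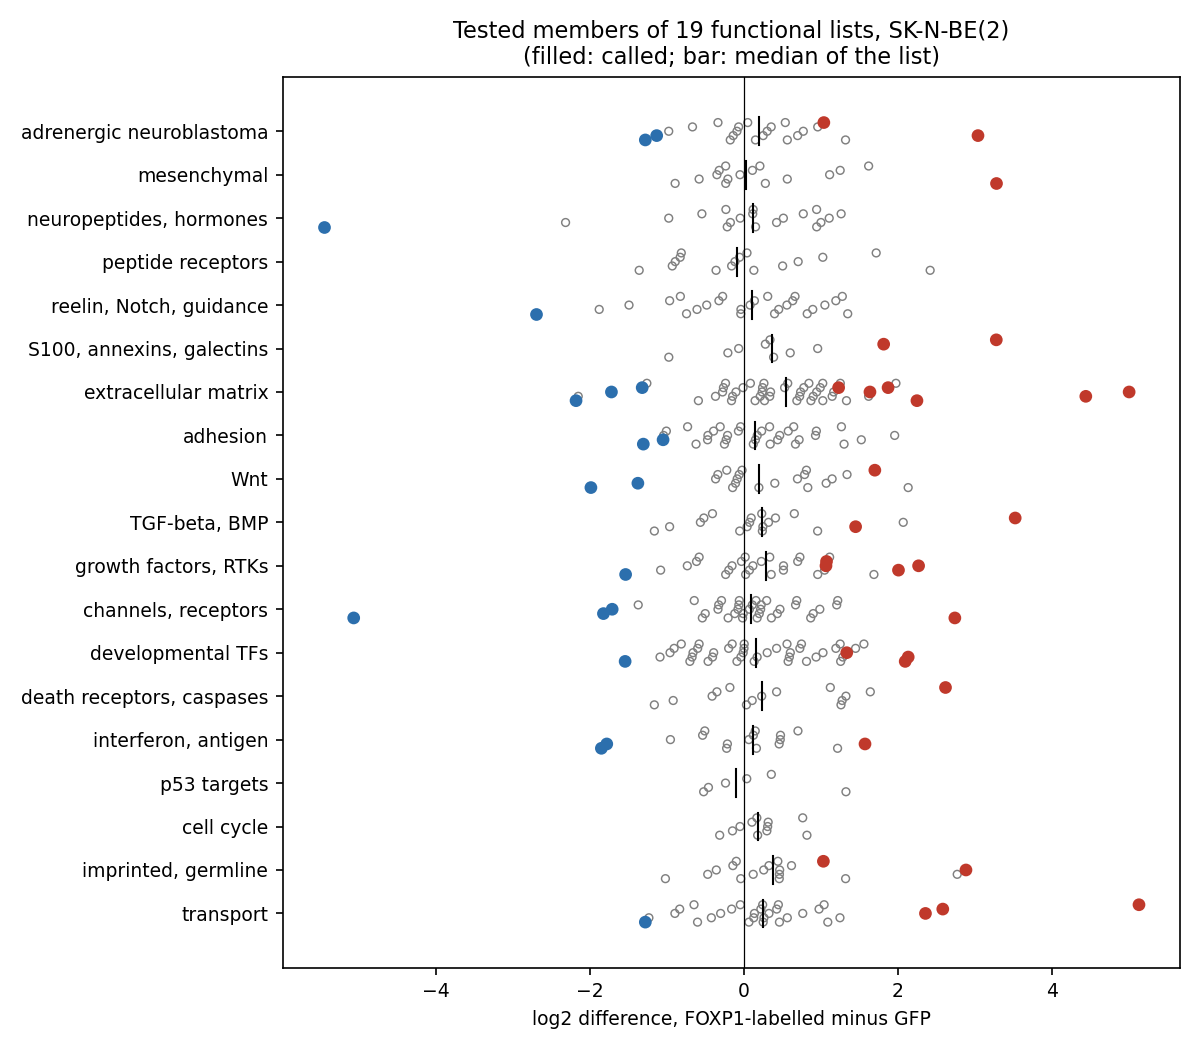
Each point is a tested probe of a list (rows) at its log2 difference, FOXP1-labelled minus GFP (horizontal axis); filled red and blue points are called higher and lower, open points are not called, and the bar is the list's median. The matrix list has the highest median of those drawn, 0.55, and it has 6 probes called higher and 3 lower.

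The other cell lines were compared by contrasts of the difference itself, tested over all 24 arrays. Of 36234 probes, 3505 (9.67%) had a difference in SK-N-BE(2) unlike that in IMR-32 and 995 (2.75%) unlike that in CHP-212, the latter 1998 with time as a block. Of the 28 named genes, 24 were called in the contrast with IMR-32 and 21 in that with CHP-212. Since the genes were chosen by their difference in SK-N-BE(2), nothing is read from these counts. A called contrast does not mean that a gene kept its level in the other line: in the line's own test, TMEM47 (at least 3.67, adjusted p = 0.00183) and SEL1L3 (2.10, adjusted p = 0.0162) were also higher in CHP-212, and STK26 (2.69, adjusted p = 7.42e-07) was higher in IMR-32. Of the lower genes, GABRB1 was also lower in IMR-32 (-1.54, adjusted p = 0.00735). So were ST6GAL2 (-2.12, adjusted p = 3.52e-05) and TAFA5 (-1.17, adjusted p = 0.00287), and their contrasts with IMR-32 were not called (adjusted p = 0.872 and 0.074, the latter 0.0201 with time as a block). As before, a log2 difference or contrast that includes arrays not well above background is given as a bound.

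SST was at background on all 8 arrays of CHP-212 and above it on 2 of 8 in IMR-32; its difference was not tested within these lines. RELN was opposite in IMR-32. Its log2 difference there was at least 6.79 (adjusted p = 3.52e-08), with no IMR-32 GFP array well above background and all 4 FOXP1 arrays above it, and the contrast was -9.49 or lower (adjusted p = 1.25e-13). In CHP-212 it was -1.45 (adjusted p = 0.0353), and the contrast of -1.25 was not called (adjusted p = 0.161, and 0.0181 with time as a block). S100A10 did not differ by the test in IMR-32 (0.42, adjusted p = 0.315) or CHP-212 (0.83, adjusted p = 0.0696), and both contrasts were called, at 2.86 (adjusted p = 8.1e-06) and 2.44 (adjusted p = 0.000286).

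Among the higher genes, SLC25A24 was measured on all arrays of the other lines and differed by 0.03 in IMR-32 (adjusted p = 0.927) and 0.31 in CHP-212 (adjusted p = 0.452), with contrasts of at least 2.99 (adjusted p = 1.87e-12) and at least 2.71 (adjusted p = 4.33e-11). COL2A1 was at background on all 8 arrays of each other line. RFTN1 was higher in all 3 lines, by 2.27 in IMR-32 (adjusted p = 0.00017) and 1.01 in CHP-212 (adjusted p = 0.019). Its contrast with IMR-32 was 0.66 (adjusted p = 0.192) and with CHP-212 1.93 (adjusted p = 0.000416). PTPRK was higher in IMR-32 by at least 6.81 (adjusted p = 5.06e-06), with 2 of 4 IMR-32 GFP arrays well above background, and by less in SK-N-BE(2), with a contrast of -3.85 or lower (adjusted p = 1.63e-06).

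MEST was higher in SK-N-BE(2) and lower in IMR-32, by a log2 difference there of -3.31 (adjusted p = 5.88e-05). Its contrast was 6.19 (adjusted p = 1.05e-09). EMILIN2, LOC131873 and TM4SF4 were lower in SK-N-BE(2) and higher in both other lines. EMILIN2 differed by 1.65 in IMR-32 (adjusted p = 0.000142) and by at least 2.84 in CHP-212 (adjusted p = 0.000132), with 2 of 4 CHP-212 GFP arrays well above background. LOC131873 differed by at least 4.21 in IMR-32 (adjusted p = 0.000125), with 2 of 4 IMR-32 GFP arrays well above background, and by 6.46 in CHP-212 (adjusted p = 7.58e-07). TM4SF4 differed by at least 5.69 in IMR-32 (adjusted p = 6.63e-05) and at least 2.35 in CHP-212 (adjusted p = 0.00102), with 1 of 4 and 2 of 4 GFP arrays well above background. Of the other lower genes, RAB37 (at least 6.43, adjusted p = 0.000179) and NCKAP5 (1.27, adjusted p = 0.00405) were higher in IMR-32 and ST6GAL2 in CHP-212 (1.14, adjusted p = 0.00921).

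Over all probes, 189 of the SK-N-BE(2) calls were also tested in IMR-32. Of the probes tested in both lines, 10.9% were called in the IMR-32 comparison (12.2% of all probes tested in IMR-32). Of the 189 SK-N-BE(2) calls, 97 were called in both lines (51.3%), which is 2.74% of the 3535 IMR-32 calls tested in both. Their direction was the same for 33 and opposite for 64. In CHP-212, 172 of the SK-N-BE(2) calls were also tested. Of the probes tested in both lines, 2.59% were called in the CHP-212 comparison (3.02% of all probes tested in CHP-212). Of the 172 SK-N-BE(2) calls, 37 were called in both lines (21.5%), which is 4.53% of the 816 CHP-212 calls tested in both. The direction was the same for 19 and opposite for 18. The lines share no arrays. Among the SK-N-BE(2) calls shared with another line, both the same and the opposite direction thus occurred.

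**Figure D5:**
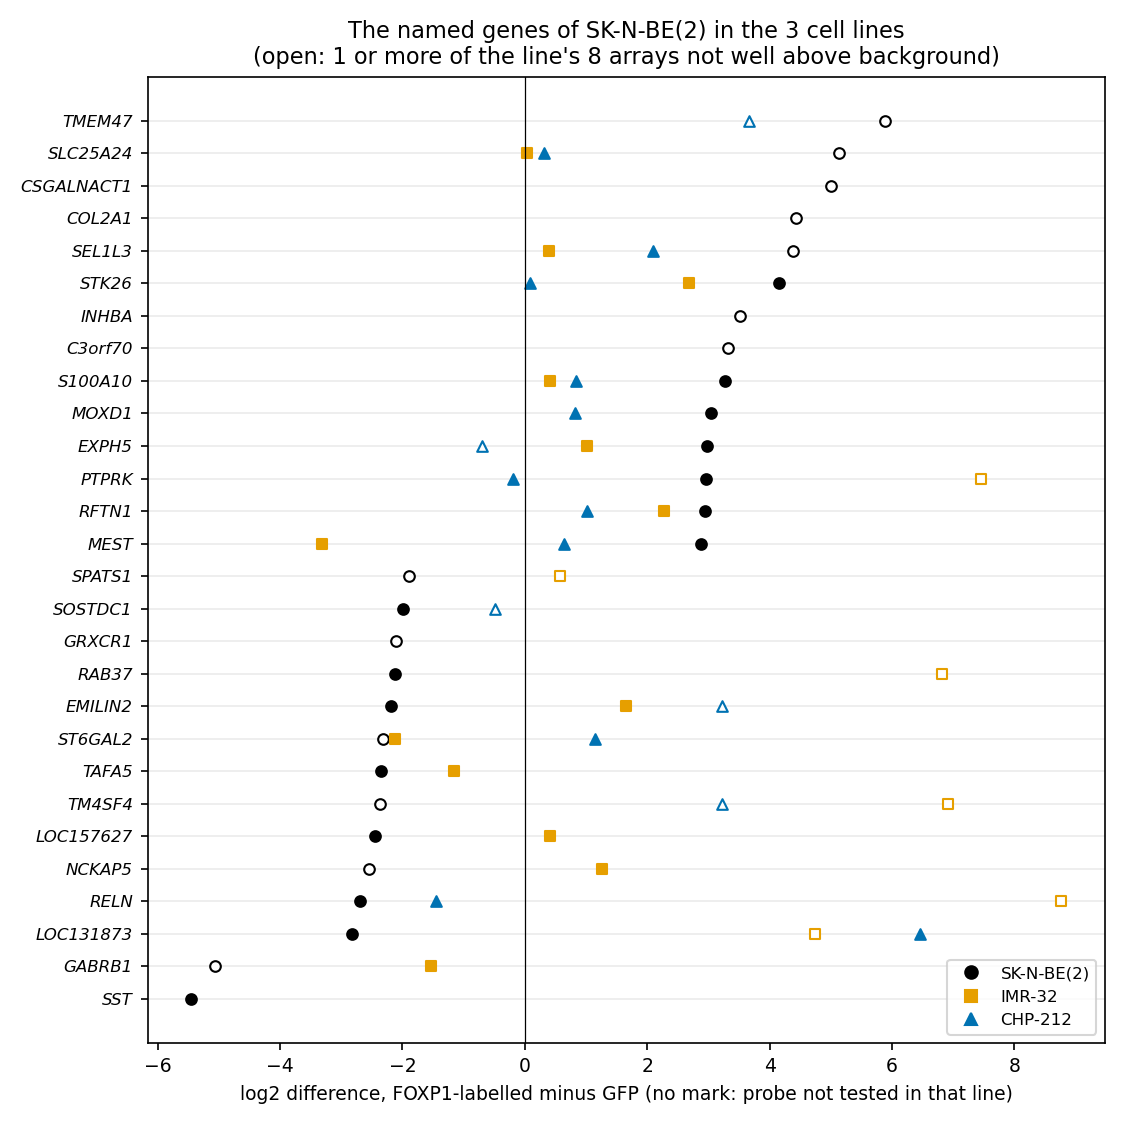
Log2 difference, FOXP1-labelled or FOXP1 minus GFP (horizontal axis), of 14 higher and 14 lower named genes of SK-N-BE(2) (rows) in SK-N-BE(2) (black circles), IMR-32 (orange squares) and CHP-212 (blue triangles); open marks have 1 or more arrays of that line not well above background, and their true size is not known; a missing mark means the probe was not tested in that line. RELN lies at -2.70 in SK-N-BE(2) and, as an open mark, at 8.77 in IMR-32, and RFTN1 is on the higher side in all 3 lines.

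A further 129 called probes, 73 higher and 56 lower, were not matched to a symbol here. The probes UKv4_A_24_P253676 (at least 5.67-fold, adjusted p = 0.00722) and UKv4_A_23_P33326 (log2 difference 3.37, adjusted p = 0.000196) were the highest of them by measured log2 difference with all 4 FOXP1-labelled arrays well above background. The lowest were UKv4_A_32_P215621 (at least 7.45-fold lower, adjusted p = 0.0157) and UKv4_A_32_P59516 (at least 4.32-fold lower, adjusted p = 0.0024, at background on all FOXP1-labelled arrays). UKv4_A_32_P215621 lost its call without GFP 0 or 24 h or FOXP1-labelled 12 or 72 h (0.0579 to 0.0723). The number of arrays limits the precision of all these values.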

How the data were processed

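Total RNA of the 2 SK-N-BE(2) cultures, sampled at 4 times, and of the cultures of the other lines was measured on 24 Agilent 44K arrays. The deposited files hold the fluorescence intensity of each spot: per the file headers, Agilent Feature Extraction 10.7.3.1 subtracted background from the spot signal to give the processed signal and marked spots well above background, saturated or outlying. The deposited series table holds values that the authors scaled from the processed signal; they rank as it does on each of the 24 arrays. The submitters' processing notes name limma. Here, from 43291 probes besides control spots, the log2 processed signal was taken relative to each array's 75th percentile, with the 54 outlier spots of SK-N-BE(2) left out. A probe was tested if 4 or more of the 8 arrays carried that mark for it. The 4 FOXP1-labelled arrays were compared with the 4 GFP arrays in R 4.3.3 with the functions lmFit and eBayes of limma 3.58.1, two-sided, with Benjamini-Hochberg adjustment over all tested probes, and called at an adjusted p under 0.05 and at least 2-fold. Tables and figures were made in Python. The fit was tested on simulated data.

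Per array, 73.6% to 80.4% of probes were well above background and the 75th percentile of the processed signal was 1111 to 1617. The FOXP1-labelled 24 h array had 1 saturated spot and the other arrays had none. The 0 and 12 h arrays of both cultures shared 1 slide and the 24 and 72 h arrays the other. The time points pair the arrays: the deviations of same-time arrays from their group means correlated at 0.37, 0.67, 0.58 and 0.43 (0, 12, 24, 72 h), across 34044 probes, and those of arrays of different times at most at 0.16. With the time point as a replicate block 477 probes were called in place of 242. Scalings moved the median log2 difference of all tested probes by less than 0.1.

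Probes were named through the study's table of changed genes (3504 probes), with symbols brought up to date by RefSeq (GRCh38.p14) for 577; 155 were not matched and keep the table's name. Named genes are FOXP1, SST, RELN and S100A10; the 15 highest and 15 lowest log2 differences among called probes with a symbol whose groups do not overlap and whose higher group is well above background on all 4 arrays, leaving out Y-linked genes; every called member of 24 gene lists, or else the 2 tested members with the lowest p; and at most 2 probes without a symbol in each direction. 3 called genes are not reported here and were left out of the named genes, 2 of them without being replaced, and of the lists. The members and lists were chosen with earlier results of these data known. Alternatives were another background correction, other scalings, other filters, blocks for time point and slide, the study's kind of test, other sets of arrays and leaving out each array.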

Additional observations from a re-analysis of the deposited data

Results flagged for a closer look

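Among 166 groups of 4 values, 13 (7.83%) held a value far from the other 3 by Dixon's criterion, against about 1 in 20 by chance. In the GFP culture these were, on the log2 level scale, C3orf70 at -5.79 at 72 h (the others -8.32 or lower), GFRA2 at -1.77, INHBA at -8.19 and KIF15 at 0.33, all at 72 h, SEL1L3 at -6.55 at 24 h and LMO3 at -4.98 at 0 h. In the FOXP1-labelled culture they were GRXCR1 at -7.88 and STK26 at -1.04 at 0 h, KIF15 at 2.31 at 12 h, CHST2 at -2.42 and LHX9 at -2.82 at 24 h and IGFBP7 at 0.09 at 72 h. The GFP array of 72 h holds 4 of the 12 levels. The FOXP1-labelled 24 h array had 73.7% of probes well above background, while the other 3 of that culture had 80.2% to 80.4%.

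The difference between cultures in SK-N-BE(2) itself differed from that of another line, by tested contrasts, for 25 genes against IMR-32 and 22 against CHP-212, among the named genes of the largest size and FOXP1. The log2 contrast with IMR-32 and then with CHP-212 was 5.97 and 2.22 for TMEM47, 5.09 and 4.82 for SLC25A24, 4.66 and 4.80 for CSGALNACT1, 4.12 and 4.80 for COL2A1, and 3.98 and 2.28 for SEL1L3. For STK26 it was 1.47 and 4.08, for S100A10 2.86 and 2.44, for MOXD1 3.52 and 2.22, for EXPH5 1.97 and 3.67, for PTPRK -4.50 and 3.15, and for MEST 6.19 and 2.25. For the lower genes it was -5.93 and -5.44 for SST, -3.53 and -5.21 for GABRB1, -3.83 and -5.40 for EMILIN2, -7.57 and -9.29 for LOC131873, -9.29 and -5.60 for TM4SF4 and -2.48 and -2.23 for SPATS1. FOXP1 had -1.60 and -2.18. The contrast with IMR-32 was called, and that with CHP-212 was not, for INHBA at 3.95, C3orf70 at 4.36, RELN at -11.46, RAB37 at -8.95, NCKAP5 at -3.82, LOC157627 at -2.86 and SOSTDC1 at -1.80. With time as a block the contrast with CHP-212 was also called for C3orf70 (adjusted p = 0.038), RELN (0.0181), NCKAP5 (0.00149), LOC157627 (0.00441) and SOSTDC1 (0.00208). The contrast with CHP-212 was called, and that with IMR-32 was not, for RFTN1 at 1.93, ST6GAL2 at -3.46, TAFA5 at -3.51 and GRXCR1 at -2.68. With time as a block the contrast with IMR-32 was also called for GRXCR1 (-1.98, adjusted p = 2.5e-05) and TAFA5 (-1.18, adjusted p = 0.0201). A called contrast does not exclude a difference in the same direction in the other line. Genes at background in the other line have a contrast that rests on the SK-N-BE(2) arrays. These are measured contrasts, and where an array of either line was not well above background the true size is not known. With such arrays replaced by bounds, the contrast with IMR-32 was at least 2.99 for SLC25A24 and 2.39 for SEL1L3. It was no higher than -9.49 for RELN, -8.55 for RAB37, -7.04 for LOC131873, -6.61 for TM4SF4, -3.85 for PTPRK, -2.97 for NCKAP5, -2.28 for SPATS1 and -1.92 for GABRB1. The contrast with CHP-212 was at least 3.33 for EXPH5, 2.71 for SLC25A24 and 0.69 for SEL1L3, the last under 2-fold, and no higher than -5.02 for EMILIN2, -3.27 for TM4SF4 and -1.94 for ST6GAL2. Where other arrays are not well above background, the contrast has no bound.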

How the results depend on the processing

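The count of 242 called probes was 170 with a normexp correction (148 shared), 242 after quantile normalization (206 shared), 250 from the authors' values (209 shared), 195 among probes detected on all 8 arrays (182 shared), 173 with no filter (161 shared) and 310 with all 24 arrays in 1 fit (185 shared). It moved by more than 1.5 times to 477 with the time point as a replicate block, to 537 and 121 with the study's kind of test without and with adjustment, and to 40 from 12, 24 and 72 h alone. Leaving out 1 array gave 127 to 213, of which 125 to 184 were among the 242. Fewer arrays leave fewer degrees of freedom; the cause of the other shifts was not tested. The 40 calls from 12, 24 and 72 h were 99 with the replicate block and 14 with no filter, and the cause was not tested. The contrast with CHP-212 moved from 995 to 1998 with the replicate block; it was 1178 after quantile normalization and 933 with no filter. The contrast with IMR-32 stayed within 1.5 times of 3505 in all 3 alternatives. Of 58 contrasts of named genes, 1 lost its call after quantile normalization (SOSTDC1 with IMR-32) and 4 gained one, 2 lost theirs with no filter (GRXCR1 with CHP-212 and LOC157627 with IMR-32), and with the replicate block 0 were lost and 7 gained; the cause was not tested.

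Of 81 named probes, 66 were called. Calls were lost for 21 with normexp, 5 after quantile normalization, 4 with the authors' values, 23 with no filter, 34 with the study's kind of test after adjustment, 12 with all 24 arrays and 49 from 12, 24 and 72 h alone. With the time point as a block 0 were lost and 3 gained, AGTR1, CMKLR2 and EGFL7, and it changed no other call among the named probes. Among probes detected on all 8 arrays, 54 of the 81 were tested and all of these kept their side of the threshold. The direction was kept in every setting in which a named probe was tested, except by ESAM, an endothelial gene that is not called, at -0.0617 on the 0 and 12 h slide alone; the cause was not tested. On each slide alone 6 log2 differences moved by at least 1 within-group SD. Signal over background limits the fold of genes at background in 1 culture, whose folds are bounds.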

Other observations

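The cell cycle and p53 target lists were among those with no called member. Of 11 tested cell cycle genes limma called 0, with 2 at an unadjusted p under 0.05, and the study's kind of test called 0 with or without adjustment; the median log2 difference was 0.18. The members with the lowest p were the mitotic kinesin KIF15 at 0.76 (adjusted p = 0.493) and RRM2, listed in the study's table as C2orf48, at 0.82 (adjusted p = 0.649). In this line, p53 mutant by the paper, limma called 0 of 6 tested p53 targets, with 1 at an unadjusted p under 0.05. The study's kind of test called 1 of them without and 0 with adjustment. The autophagy gene DRAM1 had a log2 difference of 1.32 (adjusted p = 0.108) and the DNA repair gene DDB2 0.36 (adjusted p = 0.869).

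Of 18 tested imprinted and germline genes, 2 were higher and 0 lower, and 4 and 1 with time as a block. Beside MEST this was MAGEE2, a MAGE family member, 2.04-fold higher (adjusted p = 0.0345); its call was lost without any 1 of the 8 arrays (0.0661 to 0.143).

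None of the tested markers of other cell types was called by limma without a block: 0 of 3 endothelial (1 at an unadjusted p under 0.05), 0 of 2 leukocyte (2), 0 of 4 epithelial (1), 0 of 1 Schwann cell and melanocyte (0) and 0 of 1 fibroblast (1), and the study's kind of test called 0 in each. With time as a block the endothelial gene EGFL7 was called (log2 difference 1.31, adjusted p = 0.461 without and 0.00878 with the block). The other log2 differences were 0.93 for ESAM (adjusted p = 0.898), 0.07 for KDR (adjusted p = 0.991), -0.56 for LCP1 (adjusted p = 0.418), -0.92 for CD33 (adjusted p = 0.484), 0.78 for KRT19 (adjusted p = 0.237), 0.33 for KRT16 (adjusted p = 0.985), 0.08 for KRT6A (adjusted p = 0.997), -0.60 for MUC1 (adjusted p = 0.92), -0.73 for PMEL (adjusted p = 0.876) and -0.89 for DCN (adjusted p = 0.564).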
